A study of Mus musculus with 10 samples.

Results

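Total RNA of femoral control cells and of LPS-stimulated splenic B cells of the mouse was compared across all genes in 4 of the 10 libraries of the series, chosen by their labels. The femoral group is 2 libraries, each from RNA pooled from 3 mice that are RAG2-deficient and gamma c-deficient, with RNA extracted directly after recovery of what the labels call femoral B cells. The splenic group is 2 libraries of CD43-depleted splenocytes from WT mice (BLACK-6 in the protocol) kept for 2 days in RPMI 1640 with 10% FCS and 5 μg/ml LPS. The other 6 libraries are femoral cells and LPS-stimulated splenic cells of KOKI mice, and WT splenic cells given LPS and SAHA, an HDAC inhibitor. They entered the fit through the scaling, the low-count filter and the estimate of the spread, and are not compared here. Tissue, genotype, CD43 depletion, culture, LPS and any strain difference changed together between the groups, so their shares in any difference below cannot be told apart. CD43 is carried by early precursors and myeloid cells, so low splenic levels of their markers are not independent of the depletion. The labels give no age, and give no sort or depletion for the femoral cells. That each pool or culture came from separate animals is stated only for the femoral pools. The p-values thus measure the spread between libraries within groups over the whole fit, which may in part be technical.

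RAG2 is a subunit of the recombinase that assembles antigen receptor genes, and without it B cell development stops before a heavy chain is made. The common gamma chain, gamma c, is shared by receptors for several lymphoid cytokines, among them IL-7, on which mouse B cell precursors depend. Bone marrow also holds the precursors of granulocytes, monocytes, red cells and platelets. LPS acts through TLR4 on mature splenic B cells, which grow into dividing blasts and in part become antibody-secreting plasmablasts.

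The deposited gene counts summed to 29251154 and 29314068 in the femoral pools and to 26517669 and 29222145 in the splenic cultures. Levels below are CPM, counts scaled to a common library total, with that total adjusted by the TMM method, 1 value per library, and fold changes are femoral over splenic on the log2 scale. Genes with 20 or more counts numbered 14911 and 15078 in the femoral pools and 12780 and 13165 in the splenic cultures. Mitochondrial genes took 6.50% and 7.19% of the femoral counts and 5.02% and 3.39% of the splenic ones. Of 20204 genes tested, 8568 (42.4%) passed an adjusted p under 0.05, 4303 (21.3%) higher and 4265 (21.1%) lower in the femoral pools. Those that passed with a log2 change of at least 1 numbered 6394 (31.6%). The 2 groups did not overlap in CPM for 14420 genes (71.4%). The median fold change over all genes was 0.02 and the median size of a change was 1.07. A list is read below against about 21% called in each direction over all genes. Most list members are protein-coding, and the called share was larger there: of 14144 protein-coding genes tested alone, 3840 were higher and 3702 lower. Calls were 50.2% femoral higher here, 57.6% with DESeq2 size factors and 68.1% with plain library totals, which moved the median of all genes to 0.17 and 0.38. Without the first splenic culture 2775 genes were lower instead of 4265. Of 703 genes on 41 lists of cell types, B cell stages and metabolic paths, 689 were tested and 14 were too low to test.

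The plot of group means for all genes tested places the marker lists against the rest.

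**Figure D1:**
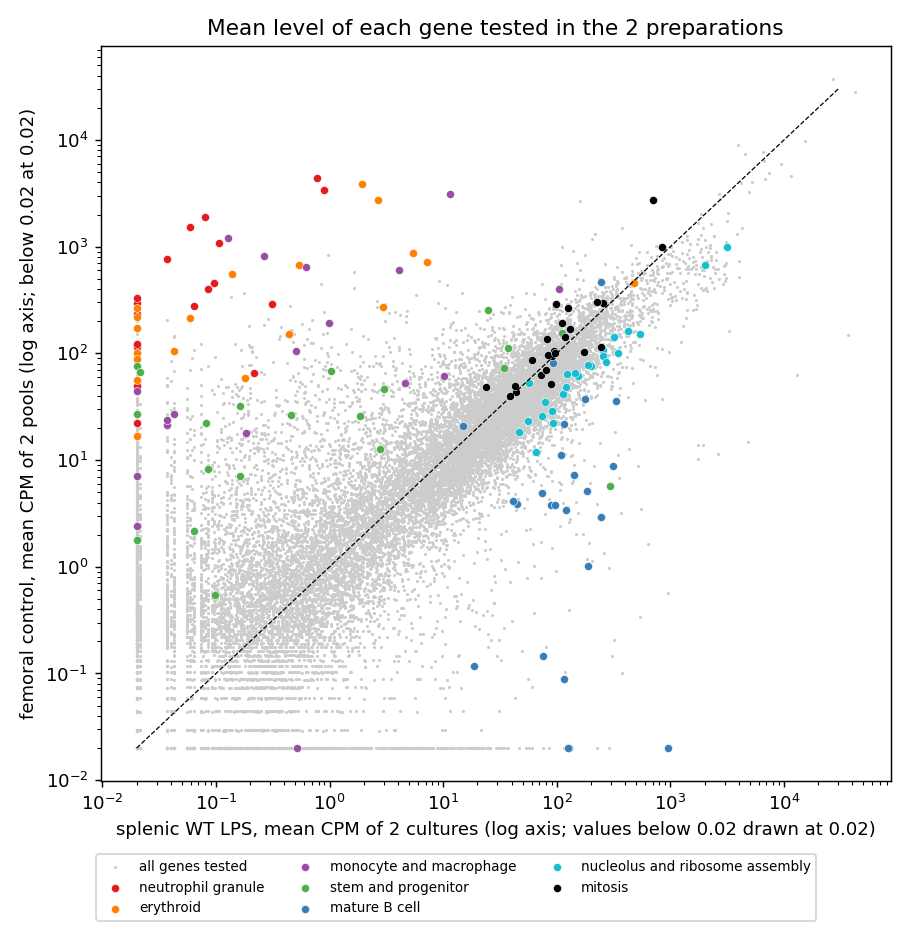
Each point is 1 gene, with its mean CPM in the 2 splenic cultures on the x axis and in the 2 femoral pools on the y axis, both log axes. The dashed line marks equal levels. The neutrophil granule genes and 18 of 19 erythroid genes lie far above the line, 21 of 24 mature B cell genes were lower, and mitosis genes lie around it.

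The check of the label against markers comes before the results. Cd79a, a signalling chain of the B cell receptor, stood at 0.145 and 0.148 CPM in the femoral pools and at 314 and 298 CPM in the splenic cultures. Pax5, the factor that commits cells to the B lineage, stood at 0.0872 and 0.326 against 299 and 341 CPM. These B cell markers, and Ms4a1 given below, were thus at or near 0 in the libraries labelled femoral B cells, while markers of granulocytes, monocytes and red cell precursors were abundant there. They are therefore called femoral cells here. The splenic libraries carried all 3 of these B cell markers. Xist was at most 0.223 CPM in each of the 4 libraries and the Y-linked gene Ddx3y was between 119 and 250 CPM, and Uty, also Y-linked, was at 51.6 and 74.0 against 66.1 and 46.5 CPM. In bulk RNA, fewer cells of a type and less RNA per cell cannot be told apart.

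Rag2 itself was counted at 7.79 and 6.02 CPM in the femoral pools and at 0 in both splenic cultures. Il2rg, the gene of gamma c, was at 10.5 and 7.05 against 55.0 and 48.6 CPM. The counts cover whole genes and the deleted stretches are not named, so these levels are no check of the genotype.

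Promoters of 6 genes show the regulatory sequence next to the genes on which the account of B cell stage, red cell precursors and division turns. They are the RefSeq windows from 250 bases before to 50 bases after the gene start in GRCm38.p6, read along the gene, with motif matches on either strand in capitals. Igll1 and Vpreb1, both parts of the surrogate light chain of B cell precursors, were searched for CCCNNGG, a core of the Ebf1 motif. Igll1 (chr16:16863936-16864235, minus strand) held it in 3 separate stretches and Vpreb1 (chr16:16869206-16869505, minus strand) in 2, and 50.7% of all 32851 promoters of this length hold it.
Igll1: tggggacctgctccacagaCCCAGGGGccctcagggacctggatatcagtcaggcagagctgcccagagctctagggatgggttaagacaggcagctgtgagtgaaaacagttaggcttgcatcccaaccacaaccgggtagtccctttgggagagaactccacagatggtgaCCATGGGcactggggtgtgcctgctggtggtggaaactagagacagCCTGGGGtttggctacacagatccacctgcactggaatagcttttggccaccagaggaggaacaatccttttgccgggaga
Vpreb1: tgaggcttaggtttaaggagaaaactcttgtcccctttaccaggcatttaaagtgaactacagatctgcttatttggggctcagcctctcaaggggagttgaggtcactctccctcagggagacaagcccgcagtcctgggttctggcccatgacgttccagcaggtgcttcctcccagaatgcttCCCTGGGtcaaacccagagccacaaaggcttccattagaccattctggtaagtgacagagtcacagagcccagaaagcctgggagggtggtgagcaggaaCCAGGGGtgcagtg
Alas2, the heme synthesis enzyme of red cell precursors, and Klf1, a red cell transcription factor, were searched for the GATA motif AGATAA. Alas2 (chrX:150547167-150547466, plus strand) held 1 match, on the reverse strand 86 bases before the start, and Klf1 (chr8:84901732-84902031, plus strand) held none of these letters in this window. The motif is in 11.2% of promoters.
Alas2: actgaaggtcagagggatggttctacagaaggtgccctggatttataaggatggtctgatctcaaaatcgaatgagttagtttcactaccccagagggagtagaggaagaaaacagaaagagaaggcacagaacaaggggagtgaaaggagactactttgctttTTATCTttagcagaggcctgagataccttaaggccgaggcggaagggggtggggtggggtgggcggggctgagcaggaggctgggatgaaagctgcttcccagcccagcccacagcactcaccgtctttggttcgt
Klf1: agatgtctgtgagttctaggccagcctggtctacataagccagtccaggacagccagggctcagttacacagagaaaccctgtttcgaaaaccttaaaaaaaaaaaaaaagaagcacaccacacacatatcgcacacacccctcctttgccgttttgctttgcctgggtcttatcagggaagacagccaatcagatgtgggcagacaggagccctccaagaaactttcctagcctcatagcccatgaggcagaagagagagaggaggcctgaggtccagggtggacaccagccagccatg
Ccnb1 and Cdk1, which encode cyclin B1 and its kinase, were searched for the cell cycle element TTTGAA, found in 17.9% of promoters, and for the CCAAT box, found in 37.4%. Cdk1 (chr10:69352863-69353162, minus strand) held 2 TTTGAA and 3 CCAAT matches, the latter on the reverse strand. Ccnb1 (chr13:100786437-100786736, minus strand) held 2 CCAAT matches and no TTTGAA.
Ccnb1: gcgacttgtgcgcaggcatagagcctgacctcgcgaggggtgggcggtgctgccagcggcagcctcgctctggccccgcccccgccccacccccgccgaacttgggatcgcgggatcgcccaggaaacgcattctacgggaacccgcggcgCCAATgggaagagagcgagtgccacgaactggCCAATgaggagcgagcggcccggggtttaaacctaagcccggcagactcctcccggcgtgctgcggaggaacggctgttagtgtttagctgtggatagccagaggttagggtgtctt
Cdk1: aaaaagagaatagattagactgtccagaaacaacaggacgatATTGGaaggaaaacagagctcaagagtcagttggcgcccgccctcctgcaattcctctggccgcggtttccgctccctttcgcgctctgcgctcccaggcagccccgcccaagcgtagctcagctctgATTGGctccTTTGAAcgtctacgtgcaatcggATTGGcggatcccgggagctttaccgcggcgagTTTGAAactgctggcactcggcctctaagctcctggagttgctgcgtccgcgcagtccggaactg
A match describes the letters and is not a site of binding. Other spellings of these motifs were not searched, so a window without a match may still hold a variant.

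Neutrophil granule genes were higher in the femoral pools in 18 of 18 cases, with a median fold change of 12.87, or 12.15 with the genes that had no splenic count at their lower bound. Together they made up 18080 and 13420 CPM in the femoral pools and 4.21 and 1.27 CPM in the splenic cultures. Mpo, the myeloperoxidase of primary granules, was at 1806 and 1231 CPM against 0.0426 and 0.0744 CPM. Elane, neutrophil elastase, was at 327 and 232 against 0.128 and 0 CPM. The secondary granule genes Ltf (1556 and 626 against 0.213 and 0 CPM) and Camp (516 and 394 against 0.0426 and 0.149 CPM) followed the same pattern. So did Ngp, with 2840 and 961 against 0.0851 and 0.0744 CPM. S100a9, a calcium-binding protein of neutrophils and monocytes, was at 4768 and 4044 against 1.45 and 0.112 CPM, and per kilobase of exon it had the highest level of any protein-coding gene of at least 200 bases in the femoral pools, 8440 CPM per kb. Its partner S100a8 was at 2891 and 3905 against 1.41 and 0.372 CPM. Cxcr2, a chemokine receptor of mature neutrophils, was the smallest difference of the list, 89.0 and 42.6 against 0.170 and 0.260 CPM, a fold change of 8.21. Granule genes of early precursors (Mpo, Elane) and of later ones (Ltf, Mmp9) were thus both present, and no femoral value overlapped a splenic one.

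The genes with the largest rises among all abundant protein-coding genes came from the same lineages. Retnlg, a resistin-like protein of neutrophils (chr16:48872608-48874498, mm10, plus strand), was at 440 and 222 CPM in the femoral pools and had no count in either splenic culture, which makes it at least 5579-fold higher against a floor of 3 counts over the group. By the same floor the granule protease genes Ctsg and Prtn3 were at least 4999-fold and 3929-fold higher. Car1, a carbonic anhydrase of red cell precursors, was at 300 and 230 CPM and at least 4456-fold higher. Alas2 was at 196 and 152 CPM, Mcpt8, a basophil protease, at 162 and 144 CPM, and Epx, eosinophil peroxidase, at 136 and 108 CPM, each with no count in the splenic cultures. Cd177, a neutrophil surface protein, with 242 and 114 CPM, and Ear1, an eosinophil ribonuclease, with 188 and 133 CPM, were also at 0 there.

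Erythroid genes were higher in 18 of 19 tested cases, with a median of 11.20 (10.28 at bounds), and none was lower. Klf1 was at 73.1 and 44.0 CPM in the femoral pools and at 0.213 and 0.149 CPM in the splenic cultures. Epor, the erythropoietin receptor, was at 14.8 and 18.53 CPM against 0 in both. The hemoglobin genes Hba-a1 (4278 and 3452 against 2.85 and 0.967 CPM) and Hbb-bs (2203 and 3282 against 3.23 and 2.08 CPM) share reads with the near-identical Hba-a2 and Hbb-bt, so their single values are uncertain while the direction held for all 4. Tfrc, the transferrin receptor used by red cell precursors and by dividing cells, was at 386 and 527 CPM in the femoral pools and at 521 and 441 CPM in the splenic cultures, and the groups overlapped (fold change −0.07, adjusted p = 0.82). Tfrc made up most of the erythroid sum in the splenic cultures, 547 and 458 CPM.

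Markers of eosinophils, mast cells and basophils were higher in 10 of 12 tested cases. Prg2, the eosinophil major basic protein, was at 748 and 923 CPM in the femoral pools and at 1.45 and 0.484 CPM in the splenic cultures. Cpa3, a mast cell and basophil protease, was at 79.5 and 71.4 CPM, and Gata2, a factor of these cells and of stem cells, at 21.97 and 32.5 CPM, both with no splenic count. Il5ra, the receptor for the eosinophil cytokine IL-5, went the other way, 7.53 and 5.45 against 29.3 and 27.1 CPM (fold change −2.12, adjusted p = 1.4e-05). Mcpt4, a connective tissue mast cell protease, did not pass (0.349 and 0.0593 against 0.170 and 0 CPM), and Cma1 and Tpsb2 were too low to test.

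Megakaryocyte and platelet markers were higher in 12 of 12 cases, with a median of 7.21 (4.81 at bounds) and sums of 101 and 162 CPM against 11.8 and 10.6 CPM. Pf4, a platelet chemokine, was at 7.15 and 12.8 against 0.255 and 0.521 CPM. Itga2b, the platelet integrin, was at 28.6 and 39.5 against 1.49 and 1.64 CPM. Ppbp, a platelet chemokine precursor, was at 5.38 and 16.9 CPM and had no splenic count. Itgb3, also expressed outside platelets, was at 36.1 and 48.2 against 10.1 and 7.81 CPM.

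Monocyte and macrophage genes were higher in 17 of 18 cases, with a median of 8.49 (7.65 at bounds) and sums of 6710 and 7959 against 152 and 124 CPM. Lyz2, lysozyme of myeloid cells, was at 2742 and 3502 CPM against 11.9 and 10.8 CPM, a fold change of 8.10 with a standard error of 0.37. Ly6c2, which marks inflammatory monocytes, was at 658 and 540 against 3.11 and 5.13 CPM, and their chemokine receptor Ccr2 was at 579 and 717 against 0.383 and 0.856 CPM. F13a1, a coagulation factor made by monocytes, was at 1188 and 1206 against 0.255 and 0 CPM. The macrophage genes went in the same direction: Adgre1 was at 54.0 and 69.3 against 9.45 and 10.8 CPM, and the complement gene C1qa at 26.9 in both pools against 0.0851 and 0 CPM. Csf1r, the receptor that sustains these cells, was at 183 and 201 against 0.724 and 1.26 CPM. Marco, a scavenger receptor of splenic macrophages, was the exception, with no femoral count and 0.894 and 0.149 CPM in the splenic cultures (adjusted p = 0.027, and 0.098 to 0.17 without 1 of the femoral pools or the first splenic culture).

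Dendritic cell genes were higher in 8 of 12 cases and lower in 1. Siglech, a marker of plasmacytoid dendritic cells, was at 98.7 and 113 against 0.341 and 0.0744 CPM. Itgax, the integrin CD11c, was at 31.9 and 34.4 against 0.341 and 0.372 CPM, and Cd209a at 15.46 and 21.6 CPM against no splenic count. Xcr1, which marks the cross-presenting subset, did not pass (0.581 and 0.800 against 0.341 and 0.0744 CPM). Ly6d, also carried by B cells, was lower, 46.8 and 30.4 against 454 and 391 CPM.

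Stem and progenitor genes were higher in 17 of 20 cases, with a median of 5.24 (4.97 at bounds). Kit, the stem cell factor receptor, was at 60.5 and 77.2 CPM in the femoral pools against 0.979 and 1.08 CPM. Cd34 was at 80.1 and 72.8 CPM against no splenic count and was at least 1285-fold higher. Myb, a factor of dividing progenitors, was at 281 and 228 against 22.9 and 26.7 CPM (fold change 3.36). Cebpa, which directs the granulocyte and monocyte fate, was at 28.4 and 35.5 against 0.213 and 0.112 CPM. Of the genes linked to long-term stem cells, Mecom was at 2.30 and 2.04 against 0.128 and 0 CPM and Hlf was at 6.57 and 7.68 against 0.213 and 0.112 CPM. Ly6a, the Sca-1 antigen, which activated lymphocytes also carry, was lower in the femoral pools, 4.33 and 7.08 against 306 and 288 CPM (fold change −5.70, adjusted p = 3.2e-08).

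Growth factor receptors of myeloid and red cells were higher in 13 of 14 cases. Csf3r, the G-CSF receptor, was at 138 and 104 CPM against 0 and 0.0372 CPM, and the others ranged down to a fold change of 1.09 for Flt3. Il5ra was the 1 member that was lower.

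Genes of bone and stroma were higher in 12 of 15 cases, and here the 2 femoral pools differed from each other. The list summed to 708 CPM in the first pool and 1474 CPM in the second, and to 32.6 and 42.7 CPM in the splenic cultures. Col1a1, the main bone collagen, was at 146 and 525 CPM against 0.0851 and 0.186 CPM. Bglap, osteocalcin, was at 28.9 and 55.2 against 0.213 and 0.186 CPM, and the osteoblast factor Sp7 at 0.756 and 1.54 CPM against no splenic count. Cxcl12, the chemokine that retains precursors in marrow, was at 124 and 164 against 0.0851 and 0 CPM, and Lepr, a marker of the marrow stromal cells that make it, at 17.7 and 22.2 against 0 and 0.446 CPM. Il7, the cytokine for B cell precursors, was counted at 0.407 and 1.30 against 0 and 0.0744 CPM and did not pass, but passed as higher with plain library totals (adjusted p = 0.047), no filter (0.021) and the 4 libraries alone (0.019). Alpl was the 1 lower member, 4.56 and 3.73 against 30.6 and 40.5 CPM. The granule sum ran the other way between the pools, 1.35 times higher in the first, and Ngp, Ltf and Mmp8 were each over 2 times higher there; both pools lay far above the splenic cultures for either list.

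Osteoclast markers were near the limit of the counts: only 3 of 7 could be tested, Atp6v0d2 was higher (2.33 and 1.30 CPM against no count), and Ctsk (3.49 and 1.93 against 0.511 and 0.484 CPM) and Acp5 (14.6 and 15.4 against 10.6 and 13.9 CPM) did not pass. Ctsk, with a fold change of 2.43 and an adjusted p of 0.065, passed as higher in 6 alternatives, among them no filter (0.0066), the 4 libraries alone (0.011) and plain library totals (0.033). Endothelial genes were higher in 6 of 8 cases, among them the vascular cadherin Cdh5 (10.6 and 6.64 against 0.298 and 0.707 CPM), the VEGF receptor Kdr (6.39 and 3.62 against 0 and 0.0744 CPM) and Tek (3.55 and 2.13 CPM against no count). Pecam1, which leukocytes also carry, was at 62.5 and 49.0 against 73.7 and 78.4 CPM and did not pass (adjusted p = 0.055), but passed as lower without the first femoral pool (0.014) and among protein-coding genes only (0.036).

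T cell genes were low in both groups, with sums of 14.1 and 16.5 CPM in the femoral pools and 20.99 and 19.6 CPM in the splenic cultures. Of 14 tested, 2 were higher, 2 lower and 10 did not pass, with 1 lower without either femoral pool or the second splenic culture. Cd3e had no count in the femoral pools and 0.0851 and 0.149 CPM in the splenic cultures, too low to test. Cd3g had no femoral count and 0.255 and 0.595 CPM in the splenic cultures (adjusted p = 0.018, and 0.072 to 0.079 without either femoral pool or the second splenic culture), and Cd8a was at 0.988 and 0.504 against 0.511 and 0.186 CPM. The 2 higher members were Cd4 and Cd28. Cd4, which monocytes and dendritic cells also express, was at 3.72 and 6.49 against 0.383 and 0.781 CPM. Cd28, a costimulatory receptor of T cells, was at 4.51 and 3.88 against 0.639 and 0.967 CPM (fold change 2.37, adjusted p = 0.0035). Lck, a kinase of T cells and some B cells, was lower, 1.83 and 2.13 against 12.1 in both cultures.

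Of 11 natural killer and innate lymphoid genes tested, 4 were higher, 2 lower and 5 did not pass. The lower members fell to 0 without the first femoral pool, without the second splenic culture or with the replicate block, and to 1 without either of the other libraries. The defining receptors were at or near 0: Ncr1 was at 0.233 and 0.119 against 0 and 0.409 CPM and Klrb1c at 0 and 0.385 against 0 and 0.298 CPM. Gzma, a granule protease of these cells, had no femoral count and at most 0.0426 CPM in the splenic cultures. Tbx21, a factor of these cells, had no femoral count and 0.170 and 0.558 CPM in the splenic cultures (adjusted p = 0.015, and 0.066 to 0.081 without either femoral pool or the second splenic culture). The 4 higher members included Nkg7 and Klrk1, which other leukocytes also express. Nkg7 was at 26.1 and 28.0 against 0.170 and 0.186 CPM and Klrk1 at 11.7 and 13.7 against 0.851 and 0.372 CPM. As background, natural killer cells are known to need gamma c for their development.

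The plot of summed marker levels shows these lineages side by side.

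**Figure D2:**
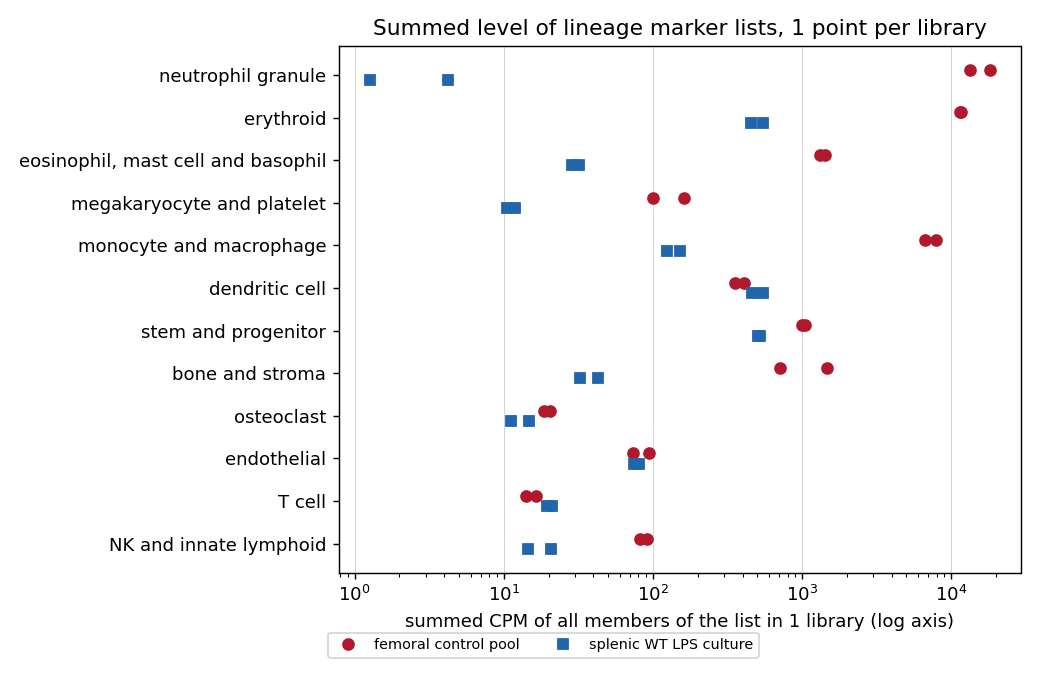
Summed CPM of each marker list (log x axis), 1 point per library: circles are the 2 femoral pools and squares the 2 splenic cultures. Neutrophil, erythroid, monocyte, eosinophil and bone lists are separated by at least 1 log unit, while the dendritic, endothelial and T cell sums lie close together. Close sums do not mean like members: 8 of 12 dendritic genes were higher in the femoral pools and 1 lower. Of 8 endothelial genes, 6 were higher and 0 lower.

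B lineage genes were read by stage, from precursors to plasmablasts. The early recombination and surrogate light chain list split: 8 of 15 tested members were higher in the femoral pools, 3 lower and 4 did not pass. Dntt, the polymerase that adds bases at gene segment joins, was at 40.4 and 34.95 CPM in the femoral pools with no splenic count, at least 633-fold higher. Il7r was at 12.4 and 15.6 against 1.75 and 1.49 CPM (fold change 3.11, standard error 0.34). Spn, the CD43 antigen of early precursors and of myeloid cells, was at 254 and 245 against 17.8 and 23.4 CPM. The splenocytes had been depleted of CD43-bearing cells before culture, so Spn is no independent finding. Rag1, the partner of RAG2, was at 0.320 and 0.830 against 0 and 0.0744 CPM and did not pass (adjusted p = 0.11), but passed as higher with no filter (0.044) and in the 4 libraries alone (0.033).

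The surrogate light chain genes Igll1 and Vpreb1 were near 0 in the femoral pools, as was Rag1 given above. Igll1 was at 1.05 and 0.207 against 0.0851 and 0 CPM (adjusted p = 0.11), and Vpreb1 at 0.320 and 0.267 against 0.0426 and 0.446 CPM, with overlap. Vpreb3, a related gene of later precursors and B cells, was lower, 0.0872 and 0.0593 against 11.2 and 8.67 CPM. Per kilobase of exon, the femoral means were 17.7 CPM for Dntt, 4.37 for Il7r and 2.02 for Rag2, against 0.290 for Igll1, 0.263 for Vpreb1 and 0.0233 for Pax5. Not all B lineage genes were that low: Cd79b was at 6.09 and Blnk at 2.41 CPM per kb. The genes set side by side were picked, so their levels give no order of stages. Rag2 is the deficient gene here, so its level does not mark a stage by itself. Cd24a, an antigen of precursors that red cells and neutrophils also carry, was at 1077 and 527 against 1193 and 1027 CPM and did not pass, but passed as lower without the first femoral pool (adjusted p = 0.010).

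B lineage regulators and receptor signalling genes were lower in the femoral pools in 15 of 21 cases and higher in 2. Ebf1, which opens the B cell programme, was at 2.03 and 2.82 against 109 and 106 CPM (fold change −5.47, standard error 0.22). Cd79b was at 8.57 and 8.86 against 530 and 498 CPM, and the adaptor Blnk at 10.5 and 18.4 against 244 and 240 CPM. Pou2af1, a B cell coactivator, had 1 femoral count against 272 and 310 CPM. Irf4, which acts in activated B cells and plasma cells, was at 9.47 and 12.9 against 335 and 356 CPM. The 2 higher members are also factors of myeloid cells: Spi1 (PU.1) was at 89.3 and 75.5 against 23.7 and 26.7 CPM (fold change 1.71), and Irf8 was at 276 and 309 against 166 and 204 CPM (fold change 0.66, adjusted p = 0.020; 0.054 without the second femoral pool and 0.11 without the first splenic culture).

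Mature B cell genes were lower in 21 of 24 cases, with a median of −4.62. Ms4a1, the CD20 antigen (chr19:11249675-11266241, mm10, minus strand), had no femoral count and 968 and 949 CPM in the splenic cultures, at least 21770-fold lower in the femoral pools by the floor of 3 counts. Cr2, a complement receptor, was likewise at 0 against 128 and 127 CPM. Cxcr5, the follicle homing receptor, had 1 femoral count against 117 and 134 CPM. Fcmr, the IgM Fc receptor, was at 0.0872 and 0.0889 against 102 and 128 CPM, and Fcer2a at 0.233 and 0.0593 against 73.2 and 79.0 CPM. Cd22 was at 2.76 and 3.11 against 212 and 280 CPM, and Tnfrsf13c, the BAFF receptor, at 1.02 and 1.04 against 187 in both cultures. Gimap3, a lymphocyte GTPase outside the lists, was at 0.0291 and 0.178 against 119 and 117 CPM. The predicted gene Gm17535, also outside the lists and named by the size of its fall, was at 0.843 and 2.46 against 358 and 900 CPM. Its values in the splenic cultures lay far apart, and it is not read as a B cell gene here.

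Immunoglobulin constant genes were lower in 11 of 11 tested cases, with a median of −10.01 (−8.13 at bounds). Ighm was at 166 and 157 CPM in the femoral pools and at 3152 and 3443 CPM in the splenic cultures, a fold change of −4.35. Ighd was at 2.59 and 3.20 against 218 and 241 CPM, Igkc at 0.639 and 0.504 against 873 and 1024 CPM, and Iglc1 had no femoral count against 255 and 201 CPM. Ighg3, a class to which LPS drives switching, had no femoral count against 10.1 and 14.4 CPM.

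All 9 tested genes of MHC class II antigen presentation were lower in the femoral pools, or 8 with DESeq2 size factors and 7 with plain library totals. H2-Aa was at 94.2 and 111 against 971 and 958 CPM, and Cd74, the invariant chain, at 115 and 142 against 1096 and 1391 CPM. Ciita, the factor that switches these genes on, was at 8.49 and 13.8 against 91.3 and 127 CPM. H2-DMb2 had the largest fall (2.94 and 5.10 against 132 and 160 CPM). H2-DMa had the smallest, 51.4 and 41.2 against 69.0 and 67.9 CPM, a fold change of −0.56 whose adjusted p of 0.017 became 0.061 to 0.14 without the second femoral pool or either splenic culture. It also did not pass with DESeq2 size factors (0.082), plain library totals (fold change −0.19, adjusted p = 0.49), the 4 libraries alone (0.084) or the Wald test (0.12).

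Plasmablast genes were lower in 8 of 15 cases, higher in 1 and did not pass in 6. Prdm1, the factor that drives plasma cell formation, was at 0.698 and 1.63 against 31.8 and 32.7 CPM, and Jchain, which joins secreted IgM, at 0 and 0.178 against 64.0 and 47.2 CPM. Xbp1, a factor of secretory cells of many kinds, was at 89.0 and 101 against 106 and 113 CPM, and the plasma cell antigen Sdc1 at 4.42 and 6.403 against 5.75 and 5.06 CPM; neither passed. Fam46c was the higher member, 89.5 and 103 against 54.9 and 57.0 CPM. Tnfrsf17, a receptor of plasma cells, had no count in any of the 4 libraries.

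The plot of B cell genes by stage shows where the groups part.

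**Figure D3:**
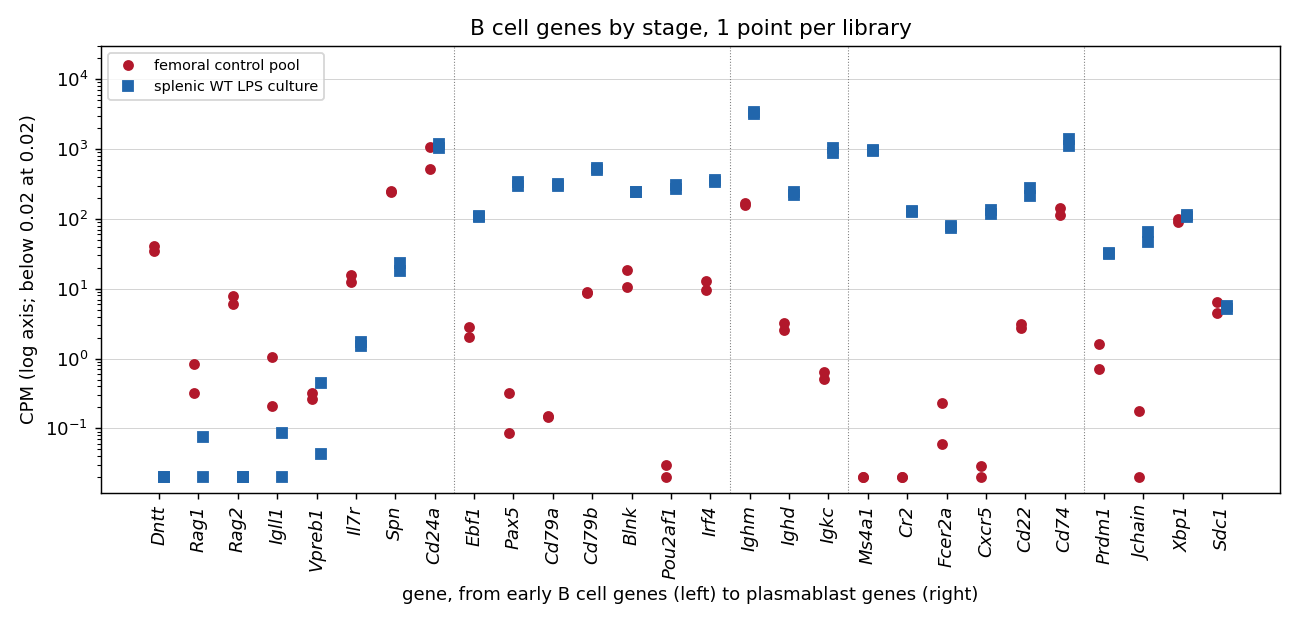
CPM of 28 B cell genes (log y axis), 1 point per library, ordered from early precursor genes to plasmablast genes: circles are the 2 femoral pools and squares the 2 splenic cultures. Dntt, Rag2, Il7r and Spn are higher in the femoral pools, and Ebf1 to Cd74 are higher in the splenic cultures. Rag2 is the deficient gene, and cells with CD43, the Spn product, were depleted from the splenocytes, so neither gene marks a stage by itself.

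B cell activation genes were lower in 15 of 24 cases, higher in 2 and did not pass in 7. Il10, a cytokine that activated B cells can secrete, had no femoral count against 49.4 and 43.8 CPM. The costimulatory Cd86 was at 11.1 and 15.3 against 51.5 and 50.5 CPM, and the factor Batf at 7.35 and 8.27 against 86.8 and 91.0 CPM. The D cyclins diverged: Ccnd2 was at 67.2 and 81.8 against 749 and 704 CPM (fold change −3.29), and Ccnd3 at 163 and 164 against 58.9 and 71.9 CPM (fold change 1.32). Myc was at 57.8 and 47.5 against 55.8 and 57.8 CPM, with overlapping groups (fold change −0.11, adjusted p = 0.63).

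Genes of the LPS receptor and its signalling path were not called in 1 direction: 5 of 16 were higher, 4 lower and 7 did not pass. Tlr4 was at 30.8 and 33.6 against 37.7 and 32.9 CPM. Cd14, the LPS coreceptor of monocytes, was at 21.5 and 14.7 against 0.255 and 0.112 CPM. Cd180, the LPS-binding relative of TLR4 on B cells, was at 45.7 and 56.8 against 88.4 and 78.0 CPM (fold change −0.70, adjusted p = 0.0068, 0.079 without the first splenic culture and 0.21 with plain library totals), and Tlr7 at 29.1 and 42.2 against 69.1 and 74.1 CPM. Without the first splenic culture 3 were higher and 1 lower, and without the second 3 were higher.

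Receptors that use gamma c and their signalling partners were lower in 9 of 18 cases and higher in 5, or 3 without the second femoral pool, without either splenic culture or with the replicate block. Il21r was at 7.12 and 7.23 against 126 and 169 CPM, Il4ra at 36.8 and 46.0 against 86.8 and 113 CPM, and Il9r at 0.291 and 0.178 against 7.19 and 9.26 CPM. Il2rg, given above, had a fold change of −2.56, while Il7r rose as given. Cish, a target gene of STAT5, was at 0.494 and 1.13 against 0.681 and 0.223 CPM and did not pass. Tslp, a cytokine that acts beside IL-7, was at 0.233 and 0.741 CPM against no splenic count, with an adjusted p of 0.025 that became 0.089 to 0.10 without the second femoral pool or either splenic culture.

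Glycolysis genes changed in both directions: 9 of 23 were higher in the femoral pools, 6 lower and 8 did not pass, with a median of −0.34. With plain library totals 3 were lower. The higher genes included isoforms that were close to 0 in the splenic cultures. Hk3, a hexokinase of myeloid cells, was at 138 and 118 against 0.511 and 0.446 CPM (fold change 8.06, standard error 0.29). Slc16a3, the lactate exporter MCT4, was at 33.8 and 39.0 against 0.0426 and 0.335 CPM, and Ldhb at 14.5 and 7.03 against 0 and 0.112 CPM. Hk1 was at 140 and 97.0 against 29.8 and 35.6 CPM, and the glucose carrier Slc2a3 at 69.4 and 64.8 against 22.4 and 25.4 CPM. In contrast the carrier Slc2a1 was lower, 7.47 and 9.93 against 18.52 and 20.98 CPM, as were Pgk1 (185 and 207 against 537 and 472 CPM) and Ldha (284 and 197 against 530 and 587 CPM). Aldoa (336 and 179 against 360 and 388 CPM), Pkm (613 and 408 against 668 and 796 CPM) and the lactate carrier Slc16a1 (107 and 109 against 143 and 142 CPM) did not pass. Aldoa passed as lower without the first femoral pool (adjusted p = 0.0145), and Slc16a1 among protein-coding genes only (0.039). Hk2 was at 94.3 and 89.3 against 55.5 and 64.4 CPM, with an adjusted p of 0.021 that became 0.056 without the first femoral pool and 0.098 without the first splenic culture. The pairs Slc2a1 with Slc2a3 and Ldha with Ldhb were thus split between the groups, but Slc2a3 and Ldhb were picked after their values were seen. Related proteins were not split in general: Hk1, Hk2 and Hk3 were all higher in the femoral pools.

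The pentose phosphate path, which makes NADPH, had 4 of 7 genes higher, or 2 without the second splenic culture, and 2 lower, or 1 without the first or the second splenic culture and 0 with plain library totals. G6pdx, its first enzyme, was at 220 and 142 against 39.3 and 43.8 CPM (fold change 2.12), and Pgd at 184 and 133 against 63.2 and 62.7 CPM. Rpia, of the branch to ribose, was lower (67.9 and 63.0 against 118 and 99.9 CPM; adjusted p = 0.012, 0.13 without the first splenic culture and 0.17 with plain library totals). Tkt was at 646 and 401 against 303 and 338 CPM, with an adjusted p of 0.043 that became 0.30 without the first femoral pool, 0.16 without the first splenic culture, 0.10 without the second and 0.073 in the 4 libraries alone.

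Glycogen genes were higher in 8 of 12 cases and lower in none, with a median of 0.92. Pygl, a glycogen phosphorylase of liver and neutrophils, was at 251 and 171 against 0.426 and 0.149 CPM, while Pygb was at 29.3 and 35.6 against 40.3 and 43.0 CPM and did not pass. Genes of the NADPH oxidase and of peroxide handling were mixed, with 7 of 17 higher and 6 lower. Cybb, the catalytic subunit of the phagocyte oxidase, was at 626 and 668 against 326 and 348 CPM. Gpx1 (755 and 451 against 174 and 147 CPM), Prdx2 (339 and 228 against 124 and 94.6 CPM) and catalase, Cat (87.5 and 84.2 against 49.9 and 52.4 CPM), were higher, and the quinone reductase Nqo1 was lower (7.61 and 7.44 against 41.6 and 26.1 CPM).

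Heme synthesis and iron genes were higher in 18 of 23 cases and lower in none, with a median of 1.86. Beside Alas2, the general isoform Alas1 was at 115 and 71.4 against 21.6 and 25.5 CPM. Fech, which inserts the iron, was at 202 and 128 against 12.7 and 15.8 CPM (fold change 3.53), Alad at 78.7 and 41.9 against 17.6 and 19.9 CPM, and the mitochondrial iron carrier Slc25a37 at 250 and 243 against 70.5 and 65.1 CPM. The genes of heme breakdown and iron export, which macrophages use, were higher as well: Hmox1 was at 88.2 and 93.8 against 11.8 and 8.74 CPM, and Slc40a1, ferroportin, at 93.6 and 138 against 0.213 and 0.186 CPM. Ftl1, ferritin light chain, did not pass (685 and 617 against 955 and 736 CPM).

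Nuclear genes of the respiratory chain were lower in 31 of 34 cases and higher in none, with a median of −0.91. The size of this list's difference depended on settings: 16 were lower with plain library totals, and 11 without the first splenic culture. Uqcrq, of complex III, was at 35.3 and 43.9 against 249 and 153 CPM (fold change −2.34), Cyc1 at 42.5 and 46.9 against 117 and 110 CPM, and Atp5b, of the ATP synthase, at 578 and 427 against 889 and 953 CPM. Cytochrome c, Cycs, was at 254 and 202 against 672 and 382 CPM, with an adjusted p of 0.0079 that became 0.051 without the second femoral pool and 0.14 without the first splenic culture. Atp5b, at an adjusted p of 0.013, had 0.058 to 0.069 without the second femoral pool or either splenic culture, 0.18 with plain library totals and 0.066 in the 4 libraries alone. Ndufv2 was at 67.8 and 58.5 against 77.3 and 77.7 CPM and did not pass.

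Gene length moved with the fold change. Among protein-coding genes with a sum of at least 20 CPM over both group means, the median fold change ran from −0.96 for 149 genes up to 750 bases of exon, over −0.76 for 1000 to 1500 bases and −0.38 for 2000 to 3000 bases, to 0.08 for 3366 genes over 5000 bases. The first over the second splenic culture differed along the same axis, from a median of 0.44 for the shortest genes to 0.01 for the longest. Respiratory chain members had a median exon length of 1870 bases. Among the 14 members of at least 2000 bases, 13 were lower, with a median of −0.89. The part of length in the result was otherwise not tested.

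**Figure D4:**
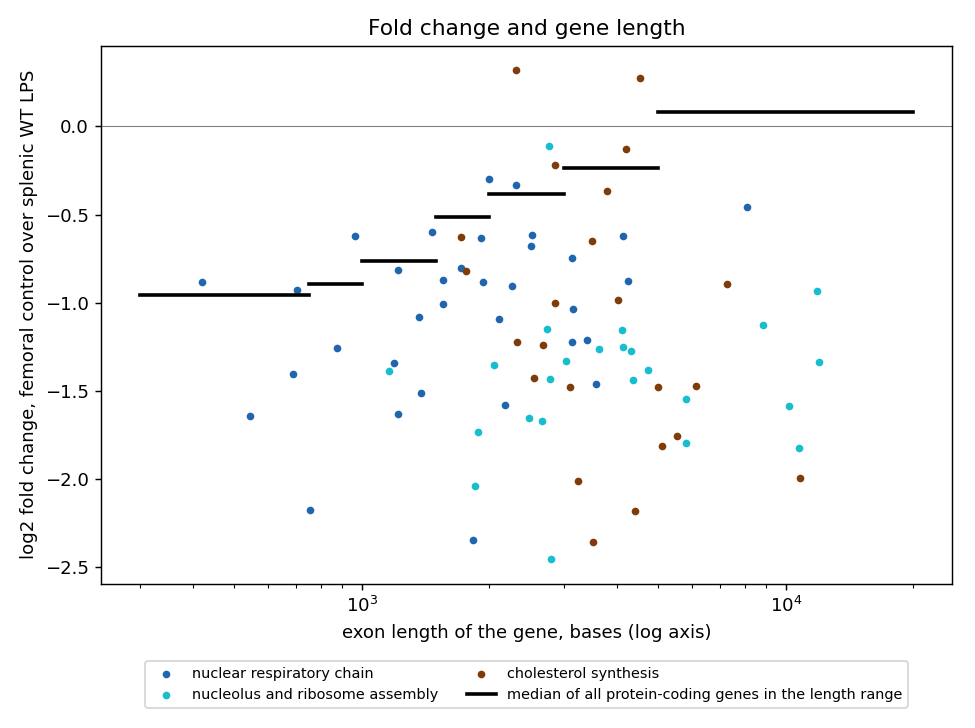
Fold change (femoral over splenic, log2) against exon length in bases (log x axis), 1 point per gene of the respiratory chain, nucleolar and cholesterol lists, with black bars for the median of all protein-coding genes in each length range. The bars run from −0.96 to 0.08, and the nucleolar genes other than Myc lie below the bar of their length range.

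Mitochondrially encoded genes did not follow the nuclear ones: 11 of 13 did not pass and 2 were lower, with a median of −0.06. Without the second femoral pool or the first splenic culture 1 was lower. mt-Nd1 was at 2318 and 1017 against 1947 and 1568 CPM and mt-Co1 at 10310 and 5037 against 7027 and 6002 CPM, with the femoral pools on either side of the splenic cultures. mt-Nd3 was lower, 723 and 695 against 4240 and 1952 CPM, and mt-Atp8, at 0.320 and 0.474 against 0.128 and 0.186 CPM, did not pass. mt-Co2, mt-Co3 and mt-Atp6 were below 20 CPM in all 4 libraries, and since near-identical nuclear copies exist their counts are uncertain.

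TCA cycle genes were lower in 10 of 22 cases, higher in 2 and did not pass in 10. With plain library totals 0 were lower and 4 higher, with DESeq2 size factors 6 were lower, and without the first splenic culture 2 were lower. Without any single library but the second femoral pool 1 was higher. Dlat, of pyruvate dehydrogenase, was at 33.6 and 42.5 against 66.9 and 67.9 CPM (adjusted p = 0.093 with plain library totals), Mdh2 at 95.0 and 84.6 against 147 and 123 CPM (adjusted p = 0.022; 0.073 without the second femoral pool, 0.25 without the first splenic culture, 0.086 with DESeq2 size factors, 0.47 with plain library totals at a fold change of −0.22, 0.079 in the 4 libraries alone and 0.088 by the Wald test), and Cs, citrate synthase, at 153 and 125 against 158 and 190 CPM, which did not pass. Idh2 was higher, 97.9 and 54.0 against 15.9 and 15.1 CPM (fold change 2.29).

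Cholesterol synthesis genes were lower in 16 of 23 cases and higher in none, with a median of −1.22. Hmgcs1 was at 59.0 and 47.0 against 226 and 201 CPM, Idi1 at 27.6 and 23.2 against 146 and 115 CPM, and Sqle at 22.9 and 16.0 against 64.7 and 66.8 CPM. Ebp (32.0 and 23.5 against 24.1 and 20.5 CPM) did not pass, but passed as higher with plain library totals (adjusted p = 0.022).

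Fatty acid genes were mixed, with 7 of 19 higher and 4 lower, or 2 lower with plain library totals. Scd1, which makes monounsaturated fatty acids, was at 13.3 and 11.9 against 369 and 490 CPM (fold change −5.09, standard error 0.26), and the fatty acid carrier Cd36 at 43.5 and 51.6 against 387 and 332 CPM. Cpt1a, which admits fatty acids to mitochondrial oxidation, was higher, 125 and 130 against 14.1 and 15.8 CPM (fold change 3.09), as was Pparg, a lipid-sensing receptor, at 7.03 and 8.63 against 0 and 0.0372 CPM. Acly (178 and 172 against 204 and 260 CPM) did not pass. Fasn was lower, 60.0 and 71.7 against 92.7 and 144 CPM, with an adjusted p of 0.0098 that became 0.053 without the first femoral pool, 0.13 without the second splenic culture and 0.15 with plain library totals.

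Genes that supply building blocks for growth were lower to an extent that depended on the scaling. Of 24 genes of purine and pyrimidine synthesis, 17 were lower and 3 higher (median −0.84), with 10 lower under plain library totals. Ppat, the entry enzyme of purine synthesis, was at 73.6 and 51.9 against 137 and 134 CPM, Impdh2 at 178 and 128 against 362 and 355 CPM, and Adsl at 33.2 and 26.0 against 86.9 and 95.5 CPM. Cad, the entry enzyme of pyrimidine synthesis, was at 51.9 and 65.6 against 85.2 and 120 CPM (adjusted p = 0.0070, 0.086 without the second splenic culture and 0.15 with plain library totals). Tyms was at 80.1 and 74.5 against 109 and 104 CPM (adjusted p = 0.030, and 0.071 to 0.22 without the second femoral pool or either splenic culture). It also did not pass with DESeq2 size factors (fold change −0.31, adjusted p = 0.14), plain library totals (−0.10, 0.72), no filter (0.11), the 4 libraries alone (0.13) or DESeq2's Wald test (0.17). Rrm2 was at 156 and 223 against 326 and 280 CPM (adjusted p = 0.030, and 0.052 to 0.19 without the first femoral pool or either splenic culture), and it did not pass with size factors (adjusted p = 0.073), plain totals (0.31) or the 4 libraries alone (0.091). Adssl1 was higher, 48.7 and 38.3 against 1.11 and 2.19 CPM.

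Of 15 genes of serine and one-carbon metabolism, 9 were lower and 2 higher. With plain library totals or with the replicate block 6 were lower, and the higher members fell to 0 without the first splenic culture and to 1 without any other single library. The 3 enzymes of serine synthesis were lower together: Phgdh was at 49.1 and 50.1 against 254 and 230 CPM, Psat1 at 61.6 and 68.4 against 263 and 235 CPM, and Psph at 5.41 and 8.33 against 47.2 and 41.4 CPM. The mitochondrial folate enzymes Shmt2 (55.1 and 43.9 against 135 and 161 CPM) and Mthfd2 (23.5 and 28.0 against 115 and 113 CPM) were lower as well. Aldh1l1, a cytosolic folate enzyme, was at 1.60 and 1.39 against 0 and 0.149 CPM, with an adjusted p of 0.035 that became 0.083 to 0.16 without either femoral pool or the first splenic culture.

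Amino acid genes were lower in 12 of 19 cases, or 7 with plain library totals, and higher in 5. Slc7a5, the carrier of large neutral amino acids, was at 21.4 and 29.8 against 61.2 and 95.3 CPM, Slc1a5, a glutamine carrier, at 57.7 and 60.6 against 107 and 111 CPM (adjusted p = 0.060 with plain library totals), and asparagine synthetase, Asns, at 38.3 and 20.5 against 82.5 and 83.4 CPM. Slc7a3, an arginine carrier, fell most, 0.233 and 0.0593 against 30.9 and 28.3 CPM (fold change −7.61). Glutamine synthetase, Glul, was higher, 117 and 122 against 33.9 and 36.8 CPM, as was Arg2, at 5.67 and 3.79 against 0 and 0.0744 CPM. Odc1, of polyamine synthesis, was at 214 and 140 against 271 and 296 CPM (adjusted p = 0.030, and 0.12 to 0.15 without the second femoral pool or either splenic culture). It had 0.098 with DESeq2 size factors, 0.36 with plain library totals at a fold change of −0.31, 0.11 in the 4 libraries alone and 0.079 by the Wald test.

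Nucleolar and ribosome assembly genes were lower in 23 of 24 cases, and the exception was Myc. The median was −1.39, and the count was 22 or 23 in each alternative without 1 library and 23 with plain library totals, and 11 fell by more than a log2 of 1 in a test against that size. Npm1, nucleophosmin, was at 1279 and 711 against 3555 and 2784 CPM (fold change −1.67, standard error 0.32). Ncl, nucleolin, was at 819 and 526 against 2303 and 1739 CPM, fibrillarin, Fbl, at 80.2 and 71.1 against 202 and 194 CPM, and Rrp9, of rRNA processing, at 12.4 and 11.4 against 63.9 and 66.7 CPM. Among the 21 members of at least 2000 bases, 20 were lower, with a median of −1.35. Myc, which is known to drive nucleolar genes, was at 47.5 to 57.8 CPM in all 4 libraries, and its part in their difference was not tested.

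The plot of metabolic lists shows each gene of these paths.

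**Figure D5:**
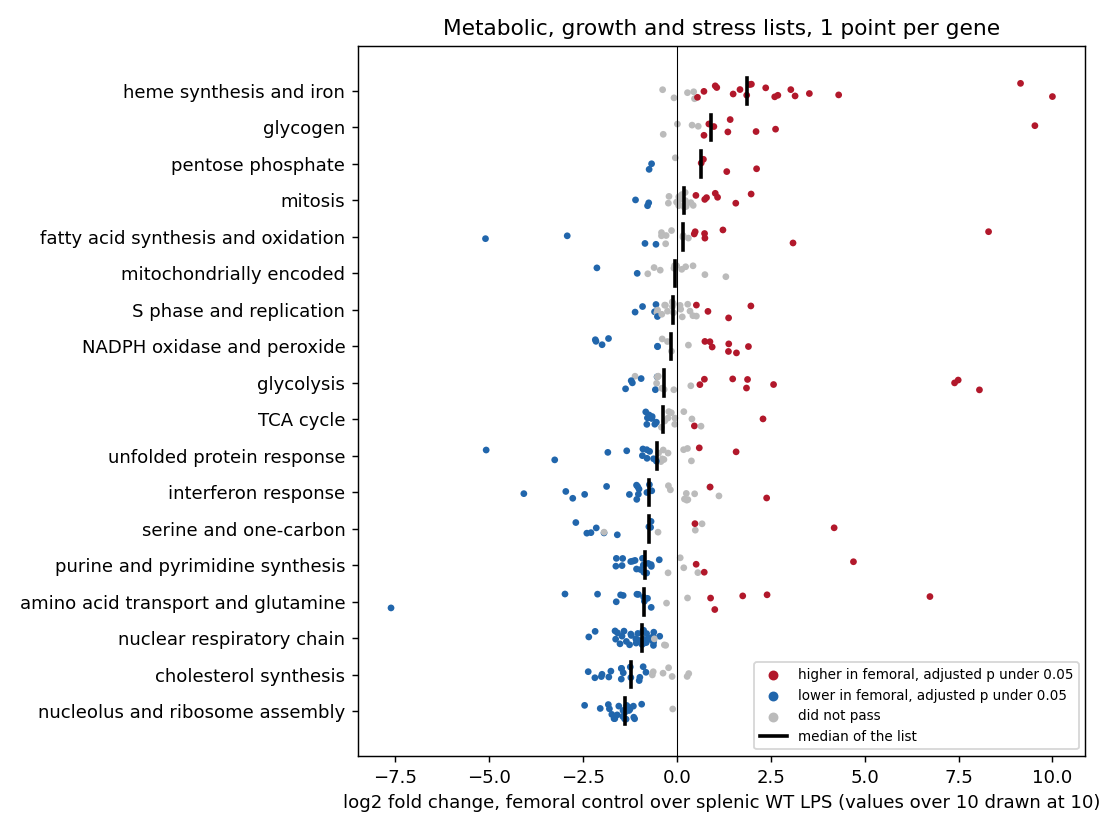
Fold change (femoral over splenic, log2) of each tested gene of 18 lists, 1 point per gene, with a black bar for the list's median. Red points were higher and blue points lower at an adjusted p under 0.05, and grey points did not pass. Heme and glycogen genes lie to the right, nucleolar, cholesterol and respiratory chain genes to the left, and S phase and mitosis genes around 0.

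Division genes were not called in 1 direction. Of 26 genes of S phase and replication, 4 were higher, 5 lower and 17 did not pass (median −0.10). With DESeq2 size factors 7 were higher and 2 lower, with plain library totals 8 and 1, and without the first splenic culture 5 and 1, without the second 4 and 2, without the second femoral pool 5 and 2. Mcm2 was at 227 and 155 against 158 and 187 CPM, and Pcna at 355 and 298 against 496 and 435 CPM; neither passed. The repressor E2f8 was higher (111 and 104 against 23.8 and 31.0 CPM), Rpa2 was lower (43.2 and 53.9 against 106 and 103 CPM), and E2f1, at 22.9 and 21.5 against 13.5 and 17.4 CPM, did not pass (adjusted p = 0.055). E2f1 passed as higher with DESeq2 size factors (0.018), plain library totals (0.0089), protein-coding genes only (0.047), without the second splenic culture (0.049) and by the Wald test (0.031). Without the first femoral pool Pcna passed as lower (0.037), as it did among protein-coding genes only (0.047).

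Of 25 mitosis genes, 7 were higher, 3 lower and 15 did not pass (median 0.20). The higher ones included Mki67, the proliferation antigen, at 3406 and 2088 against 704 and 690 CPM (fold change 1.98, standard error 0.29). The lower ones included both genes whose promoters are printed above, Ccnb1 at 110 and 117 against 254 and 233 CPM (fold change −1.10) and Cdk1 at 92.7 and 112 against 178 and 166 CPM (fold change −0.75). Cdk1 did not pass with plain library totals (fold change −0.38, adjusted p = 0.16). Plk1, a mitotic kinase, was at 42.5 and 36.4 against 34.9 and 42.5 CPM, with overlap. With plain library totals 11 mitosis genes were higher and 1 lower, so the counts of this list depend on the scaling. Its median kept its sign, at 0.36 with DESeq2 size factors, 0.57 with plain totals and 0.038 to 0.33 without 1 library.

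Genes of the unfolded protein response were lower in 11 of 22 cases and higher in 2, with 4 lower under plain library totals and 6 without the first splenic culture, and 1 higher without the second femoral pool or the second splenic culture. Hspa5, the chaperone BiP, was at 521 and 603 against 1009 and 846 CPM (adjusted p = 0.024; 0.070 without the first femoral pool, 0.20 without the first splenic culture, 0.064 with DESeq2 size factors, 0.31 with plain library totals at a fold change of −0.36, and 0.11 in the 4 libraries alone). Trib3, a target of the ATF4 branch, was at 0 and 0.326 against 5.53 and 5.73 CPM. Atf3, an early stress gene, was higher, 32.4 and 49.4 against 13.7 CPM in both cultures, and Ddit3, at 14.8 and 11.9 against 11.3 and 10.7 CPM, did not pass.

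Interferon response genes were lower in 14 of 25 cases, higher in 2 and did not pass in 9. With plain library totals 10 were lower and 5 higher, with DESeq2 size factors 12 and 4. Without the first femoral pool 6 were higher, without the second 1, and without the first splenic culture 10 were lower. Oasl1 was at 5.72 and 6.70 against 94.3 and 115 CPM. Rsad2, viperin, was higher, 105 and 91.1 against 17.3 and 20.1 CPM, and Irf7, at 24.4 and 45.2 against 25.1 and 32.7 CPM, did not pass.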

How the data were processed

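The series measured total RNA by sequencing, and 4 of its 10 libraries are compared. Per the labels' protocols, RNA came from the miRNeasy kit and libraries from 500 ng with Illumina TruSeq Stranded Total RNA. STAR 2.4.0a, featureCounts and Subread 1.4.6-p1, with mm10 (GRCm38), are named per the submitters' processing notes; for strand and multi-mapping reads the setting is not given in the sources used here. The authors deposited raw gene counts of 46959 genes, used as deposited without 100 spike-in and phiX entries. Antisense and near-identical genes may share counts.

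The members were chosen by sample labels, and the members and gene lists were chosen with earlier results of these data known. Genes were filtered with filterByExpr (minimum count 10, total 15) and tested with edgeR 4.0.16 in R 4.3.3 (TMM, quasi-likelihood F test, 2-sided) over all 10 libraries in 6 groups, with 4 residual degrees of freedom and Benjamini-Hochberg adjustment over 20204 genes. Standard errors of log2 fold changes were derived from the F statistic. The scripts were tested on simulated data. Named genes are the 10 largest rises and falls among 1445 called protein-coding genes of at least 100 CPM, non-overlapping and outside immunoglobulin and T cell receptor loci, preset genes of each list, and each list's extremes. Cd24a, Cd28, Cma1, Flt3, Gata2, Hba-a2, Hbb-bt, Hk1, Irf8, Klrk1, Lck, Ldhb, Mcpt4, Mmp8, Mmp9, Ngp, Pgd, S100a9, Slc16a3, Slc2a3, Slc40a1, Tpsb2, mt-Atp6, mt-Co2 and mt-Co3 were named outside this rule, after their values were seen. Some genes that the rule names are not reported here. GENCODE M21 gave classes for 44145 genes (94.0%). The 2 femoral pools and the 2 splenic cultures differed by more than counting noise (chi-square per degree of freedom 127.9 and 160.7), so none is a copy. Total counts of 26517669 to 29314068 mean that 1 count is about 0.03 to 0.04 CPM; intervals from counts would cover counting error only. Alternatives were other scalings, no filter, DESeq2 1.42.0, the 4 libraries alone, a replicate block, leaving out each library, protein-coding genes only, a test against a log2 change of 1, and, chosen after seeing the data, members of at least 2000 bases.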

Additional observations from a re-analysis of the deposited data

Results flagged for a closer look

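In the second femoral pool 17 counts fell on the spike-in and phiX entries, which no comparison uses, above the 3 counts that a count of 0 allows. The other 3 compared libraries had 1, 3 and 2 such counts. Against 29314068 gene counts this is too few to move any value given above.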

How the results depend on the processing

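Of the named genes, 223 gave 2657 values under the alternatives. Of these values 2473 kept direction and side of the threshold, 125 no longer passed, 24 newly passed and 35 turned. Counts of genes moved over 1.5 times as follows. With plain library totals 2568 genes were lower, 1842 of them by a log2 of at least 1. In the test against a log2 change of 1, 2604 were higher and 1553 lower. Leaving out 1 library gave 3319 to 3902 higher and 2775 to 4009 lower genes, and 2956 to 3216 higher and 2164 to 2847 lower by a log2 of at least 1, the fewest lower without the first splenic culture. Samples of 2 groups share only a replicate number (correlation of deviations −0.069 over 13839 genes); with a replicate block in the 4 libraries alone, 3866 were higher and 3143 lower, against 4510 and 3440 without it.

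Medians of lists that turned sign were close to 0. With plain totals they were 0.20 for the LPS receptor, 0.0279 for glycolysis, 0.0019 for the TCA cycle and 0.0793 for sex-linked genes. Mitochondrially encoded genes had 0.11 with DESeq2 size factors and with its Wald test, 0.31 with plain totals, 0.0246 in the 4 libraries alone, and −0.47 to 0.33 without 1 library. NADPH oxidase genes had 0.0204 with size factors and Wald test, 0.22 with totals, 0.53 among members of at least 2000 bases and −0.35 to 0.10 without 1 library. S phase genes had 0.052 with size factors and Wald test, 0.26 with totals and −0.27 to 0.0058 without 1 library. Fatty acid genes had −0.12 to 0.38 without 1 library. The cause of these turns was not tested.

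Genes that turned were not called at first. With plain totals Tfrc had 0.29, Xbp1 0.16, Myc 0.26, Tlr4 0.24, Cs 0.043, Ndufv2 0.0713, mt-Nd1 0.30 and Pygb 0.0023. With DESeq2 size factors, and the same in its Wald test, Tfrc had 0.0777, Myc 0.051, Tlr4 0.025 (0.0251 by Wald) and mt-Nd1 0.0944. In the 4 libraries alone Tfrc had 0.0006 and mt-Nd1 0.0116, and with protein-coding genes only Sdc1 had −0.0128. Without 1 library the values ranged, at the lowest and highest, for Tfrc −0.32 and 0.13, Klrb1c −4.88 and 5.26, Vpreb1 −0.52 and 2.64, Sdc1 −0.29 and 0.24, Myc −0.259 and 0.0262, Tlr4 −0.226 and 0.0425, mt-Nd1 −0.79 and 0.40, mt-Co1 −0.37 and 0.66, Mcm2 −0.16 and 0.40, Plk1 −0.0921 and 0.178 and Irf7 −0.25 and 0.64.

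Depth limits the low genes: 1 count is about 0.03 CPM, and values such as those of Igll1, Vpreb1, Rag1 or Cd3e rest on few counts.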
